A study of Rattus norvegicus with 4 samples.

Results

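Some protein-coding genes extend over very long stretches of a chromosome, nearly all of it intron. RNA polymerase II must travel the whole stretch before 1 full transcript is released, and splicing removes the introns, so that the mRNA itself need not be long. Many of the longest mammalian genes encode adhesion molecules, receptors and scaffolds that neurons place at synapses, and pancreatic β-cells, which release insulin by regulated exocytosis, use several of the same proteins. The very long genes described here are the protein-coding genes of the deposited table whose listed stop minus start is at least 500 kb, without the genes whose names begin with Nrxn, Pde or Cacna1. The rule was met by 107 of the 14087 protein-coding genes (15172 genes in all), and 3 more genes of this span were left out by name. The rule uses gene positions and no expression value.

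Expression was measured in INS-1 832/13 cells, a rat insulinoma line that secretes insulin when glucose rises. Cells were transfected for 36 h with a non-targeting siRNA (siScramble, control, 2 samples) or with a pool of siRNAs against Tbk1 (siTbk1, 2 samples), and both groups received the same transfection reagent. Replicates are numbered 2 and 3 in either group. All come from 1 cell line, and the labels do not say whether they were separate cultures, so that p-values measure only the spread between these samples, which may be technical. Stranded libraries of polyadenylated RNA held between 38428926 and 47759013 estimated counts. Before scaling, 3 counts corresponded to between 0.0628 and 0.0781 CPM (counts per 1000000 counts of a library). All other CPM values given here are scaled with TMM factors, which correct for differences in library composition. The target gene Tbk1 was at 53.7 and 52.5 CPM in the siScramble libraries and at 11.8 and 13.3 CPM in the siTbk1 libraries, a log2 fold change of −2.08 (standard error 0.076, adjusted p = 3.7e-08, quasi-likelihood test of edgeR, Benjamini-Hochberg adjustment). Of 12 β-cell markers, 11 were listed, with a summed level between 19275 and 20151 CPM in control and between 15052 and 16676 CPM in siTbk1-treated cells. Without the insulin gene Ins1 the sums were 8891 and 9059 CPM in control and 9156 and 8808 CPM in siTbk1-treated cells. Of these 10 markers 5 were higher and 4 lower in both siTbk1 libraries than in either control library. The same held for 38.7% and 37.9% of all tested genes. Of 4 α-cell markers only Gcg, the glucagon gene, was listed, at 1389 and 1313 CPM in control and 815 and 878 CPM in siTbk1-treated cells. Of 7 neuronal markers 6 were listed, with sums of 286 to 289 CPM in control and 238 to 239 CPM in siTbk1-treated cells. The largest fall was that of Tubb3, from 59.3 and 68.0 CPM to 38.5 and 32.8 CPM. Rbfox3, Snap25, Syn1 and Gad1 were also lower in both siTbk1 libraries, and Slc17a7 rose from 4.75 and 4.87 CPM to 5.61 and 5.51 CPM. The parts of these markers in the results below were not tested. In bulk RNA, fewer cells with a transcript and less of it per cell cannot be told apart.

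Not every listed span of this length held 1 gene only. Of the 107 genes, 80 had a span that wholly held no other listed protein-coding gene and 5 had a span that held 1. The spans of the other 22 genes held between 2 and 399 other protein-coding genes, with a median of 7. LOC108348062 was listed over 98604 kb of chromosome 6 with 399 genes inside, and LOC691427 over 42546 kb of chromosome 1 with 222 genes inside. Rpl7a, a gene for a protein of the large ribosomal subunit that is known as a compact gene, was listed over 594 kb of chromosome 3 with 4 genes inside. For these 22 genes the listed span therefore goes against the label of a single very long gene, and the counts of called genes and the median changes below are given for the genes by the rule and for those with at most 1 other gene inside, a division made after the data were seen. Among the 85, the median span was 604 kb and the longest was that of Dmd, the dystrophin gene, at 2233 kb on chromosome X.

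**Figure D1:**
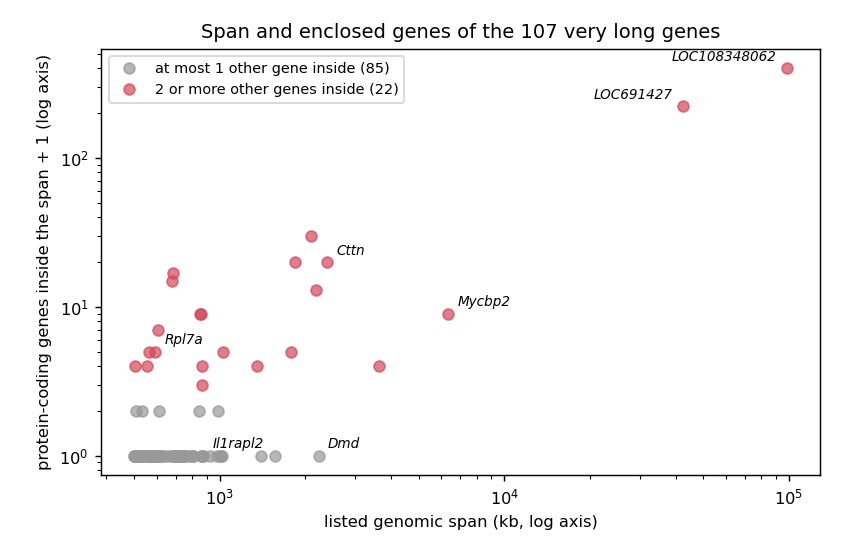
Listed genomic span in kb (horizontal, log axis) against the number of other listed protein-coding genes wholly inside it, plus 1 (vertical, log axis), for the 107 very long genes. The 85 grey points have at most 1 gene inside and end at 2233 kb (Dmd), and the 22 red points have 2 to 399 genes inside and reach 98604 kb (LOC108348062).

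The 85 genes belonged to several families, assigned from gene symbols, and the largest were those of the synapse and of cell adhesion. Synaptic and membrane scaffolds with the dystrophin complex had 13 members, immunoglobulin-domain and leucine-rich repeat adhesion proteins 10, trans-synaptic adhesion proteins with adhesion G protein-coupled receptors and glypicans 7, kinases and cytoskeletal regulators 7, enzymes and transporters 6, receptor tyrosine phosphatases 4, and transcription, chromatin and RNA-binding factors 4. A further 26 of the 85 belonged to none of the listed families. The symbol patterns sorted genes only roughly. Anks1b, described below as a scaffold, was among these 26, and the scaffold family took in the vesicle proteins Lrba and Exoc4. By chromosome, 13 of the 85 lay on chromosome 2 and 10 on chromosome 4. Of the 81 that were tested, 14.8% were on chromosome 2, against 6.49% of the other tested protein-coding genes. Counts were not whole numbers in at least 1 library (called split reads below) for 13.6% of the 81, against 24.2% of the others and 45% of the 20 tested genes with 2 or more genes inside.

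Very long genes yielded few reads. A filter on low counts left 101 of the 107 genes and 81 of the 85. The 6 genes removed, named after their values were seen, were Dock1, Sox6, Stpg2, Thsd7b, Pigz and LOC100910978, all between 0 and 0.234 CPM in every library. In control cells the median level was 5.55 CPM for the 81 genes, 43.0 CPM for the 20 genes with 2 or more genes inside and 24.4 CPM for the 13060 other tested protein-coding genes. CPM grows with the length of the mRNA, which was not available, so these levels are amounts of reads and not of transcripts. Of the 101 tested genes, 14 had a mean under 1 CPM, 42 lay between 1 and 10 CPM, 37 between 10 and 100 CPM and 8 at 100 CPM or more, and for the 81 the numbers were 13, 39, 25 and 4. The median standard error of the log2 fold change was 0.125 for the 81 genes and 0.0772 for the other protein-coding genes, so that a change of a given size was measured less precisely in the former.

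The genes at or over 100 CPM included 4 with no more than 1 gene inside the span. Ptprn2, which encodes phogrin, a phosphatase-like protein of the insulin granule membrane, had the highest level, with 639 and 650 CPM in the siScramble libraries and 605 and 587 CPM in the siTbk1 libraries. Its siTbk1 libraries lay below both control libraries, but the log2 fold change of −0.11 (standard error 0.050) did not pass the test (adjusted p = 0.082, edgeR). Lrba, a BEACH-domain protein of vesicle traffic, was at 139 and 134 CPM in control and at 154 and 152 CPM in siTbk1-treated cells. Ptprk, a receptor tyrosine phosphatase of cell contacts, was at 118 and 117 CPM in control and at 156 and 157 CPM in siTbk1-treated cells. Pclo, which encodes piccolo, a scaffold of the presynaptic active zone, was at 119 and 125 CPM in control and at 145 and 151 CPM in siTbk1-treated cells. For Lrba, Ptprk and Pclo the siTbk1 libraries were the 2 highest, and the log2 fold changes of 0.17, 0.42 and 0.28 passed the test below the fold change limit of 1.5 (adjusted p = 0.019, 5.9e-05 and 0.0012, edgeR). The other genes at this level had spans that held 2 or more genes. Cttn, the gene of the actin-binding protein cortactin (19 genes inside), fell from 375 and 371 CPM to 319 and 306 CPM, and Mycbp2 and LOC108348062 had log2 fold changes of 0.09 and −0.06 that did not pass the test.

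To ask whether very long genes changed when Tbk1 was silenced, all 13953 genes that passed the filter were tested together, and calls required a fold change of at least 1.5 besides an adjusted p-value below 0.05. Of the 101 very long genes, 11 (10.9%) were called higher after siTbk1 and 3 (2.97%) lower. Among the other protein-coding genes, 4.8% were called higher and 6.34% lower, and among all tested genes 4.81% and 6.18%. Of the very long genes called higher, LOC304725 passed the filter on low counts only through its siTbk1 libraries, and Sytl2 lay near the filter limit in control. A gene with so few counts in control that was lower still after siTbk1 would not have been tested. Of the 81 genes with at most 1 gene inside the span, 9 were called higher (11.1%) and 2 lower (2.47%), and of the 20 others 2 were called higher (10%) and 1 lower (5%). More calls upward than downward were also found at shorter spans. Among other protein-coding genes, 7.08% were called higher and 3.22% lower from 50 to 100 kb, and 8.28% and 3.09% from 100 to 200 kb. The shares were 6.75% and 3.86% from 200 to 300 kb, and 6.73% and 2.88% from 300 to 500 kb. The called genes changed mostly by modest factors, and the test of each against a fold change of 1.5, a stricter use of the limit, left only Dpyd, Edil3 and Adgrv1.

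The largest increase was that of Dpyd, which encodes dihydropyrimidine dehydrogenase, the first enzyme of pyrimidine breakdown, and is listed on chromosome 2 from 221823687 to 222694628. It was at 0.750 and 0.656 CPM in the siScramble libraries and at 2.72 and 2.70 CPM in the siTbk1 libraries (means 0.703 ± 0.066 and 2.71 ± 0.013, SD, n = 2 each). The groups lay far apart (log2 fold change 1.94, standard error 0.22, adjusted p = 3.1e-05, edgeR). Edil3, a secreted integrin-binding matrix protein listed on chromosome 2 from 17616401 to 18128513, was at 2.96 and 3.26 CPM in control and at 7.80 and 7.82 CPM in siTbk1-treated cells, a log2 fold change of 1.33 (standard error 0.13, adjusted p = 9.8e-06, edgeR). Adgrv1, a giant adhesion G protein-coupled receptor with many calcium-binding repeats, is listed on chromosome 2 from 8926850 to 9504135. It was at 31.6 and 30.0 CPM in control and at 55.1 and 54.3 CPM in siTbk1-treated cells. The groups were well separated (log2 fold change 0.83, standard error 0.063, adjusted p = 2.2e-06, edgeR), and this was the best-measured increase among the called genes. Its counts met the definition of split reads only narrowly, with 2592.01 in siTbk1 replicate 2. These 3 genes lie on the same chromosome at separate positions.

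The other increases were smaller or rested on fewer reads. Lrrtm4, a leucine-rich repeat organizer of excitatory synapses, was at 4.29 and 3.18 CPM in control and at 5.995 and 6.76 CPM in siTbk1-treated cells (log2 fold change 0.76). Anks1b, a scaffold of the postsynaptic density, was at 1.29 and 1.31 CPM in control and at 2.10 and 1.99 CPM in siTbk1-treated cells (log2 fold change 0.65). Galnt13, an enzyme that starts O-linked glycans, was at 3.64 and 3.79 CPM in control and at 5.38 and 6.17 CPM in siTbk1-treated cells (log2 fold change 0.63). In none of these 3 genes did the groups overlap, which is likely for genes called from these same libraries. Samd12, a gene of little known function, was at 11.8 and 11.4 CPM in control and at 16.9 and 18.8 CPM in siTbk1-treated cells (log2 fold change 0.62). Gabrg3, a subunit of the GABA-A receptor, was at 5.39 and 5.71 CPM in control and at 8.59 and 8.03 CPM in siTbk1-treated cells, and its log2 fold change of 0.59 lay at the fold change limit. Of 13 alternatives, 5 did not call Anks1b and 7 did not call Gabrg3. Single libraries decided several of these calls. The log2 fold change fell below the limit for Lrrtm4 without siScramble replicate 3 (0.57), and for Galnt13 (0.54) and Samd12 (0.54) without siTbk1 replicate 3. Anks1b, at 0.60 to 0.66, was no longer called without either siScramble library or siTbk1 replicate 2, and Gabrg3, at 0.54 and 0.52, without siScramble or siTbk1 replicate 2. Gramd1c, a sterol transfer protein (4 genes inside its span), rose from 15.7 and 14.6 CPM to 22.6 and 23.8 CPM. Sytl2, a synaptotagmin-like protein that ties granules to Rab27 (4 genes inside its span), was at 0.208 and 0.252 CPM in control and at 0.723 and 0.583 CPM in siTbk1-treated cells, a log2 fold change of 1.51 with a standard error of 0.39. Its control libraries held 10 and 10 counts, near the filter's minimum count of 10. Gramd1c was not called without siScramble replicate 3 (0.56) or siTbk1 replicate 3 (0.58), nor Sytl2 without siTbk1 replicate 2 (1.33). The 11th gene called higher, LOC304725, named after its values were seen, had only 5 and 2 counts in the siScramble and 12 and 12 counts in the siTbk1 libraries, and was not called once any of the 4 libraries was left out.

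Among the genes called lower, Camta1 is the one with a known product and a span without other genes. It encodes a calmodulin-binding transcription activator and is listed on chromosome 5 from 168141372 to 169017296. It was at 6.56 and 7.12 CPM in the siScramble libraries and at 3.91 and 4.56 CPM in the siTbk1 libraries, a log2 fold change of −0.70 (standard error 0.13, adjusted p = 0.00084, edgeR). The uncharacterized gene AABR07037451.2 on chromosome X, with 1 gene inside its span, fell from 5.12 and 4.95 CPM to 2.61 and 2.91 CPM (log2 fold change −0.87). Rpl7a fell from 59.4 and 54.0 CPM to 38.2 and 36.3 CPM, a log2 fold change of −0.61. Its counts include split reads and its span holds 4 other genes, so that they are less certain, and the part of either was not tested. For all 3 genes the siTbk1 libraries were the 2 lowest, and Rpl7a was not called without siScramble replicate 2 (−0.53) or siTbk1 replicate 3 (−0.57).

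**Figure D2:**
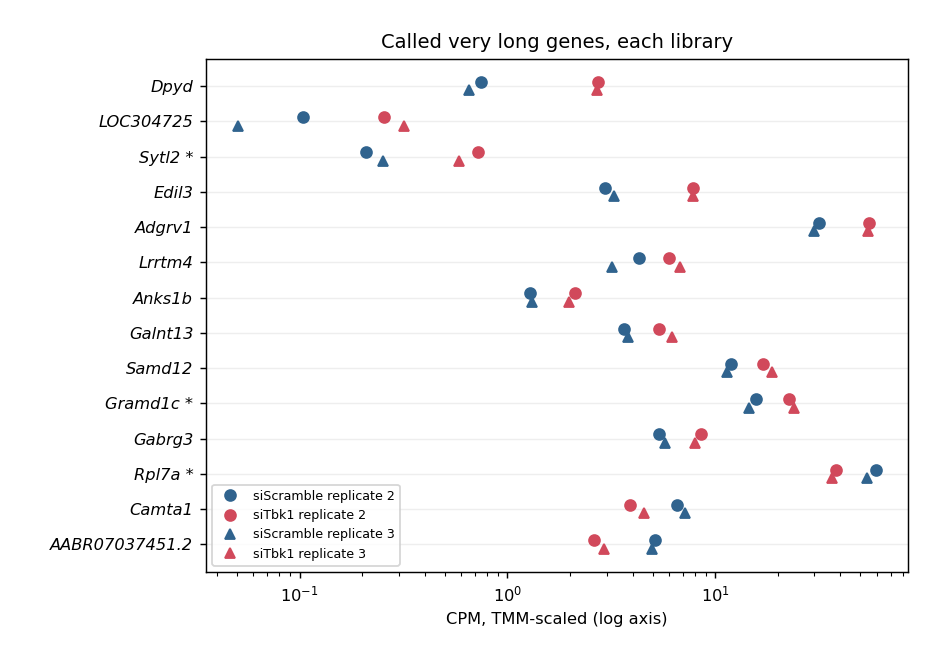
Level of the 14 called very long genes in each library, as CPM scaled with TMM factors (horizontal, log axis), in siScramble (blue) and siTbk1 (red) cells, with circles for replicate 2 and triangles for replicate 3. An asterisk marks a gene whose listed span holds 2 or more other genes. The groups do not overlap for any of the 14 genes, which is likely for genes called from these same libraries. Of all tested genes, the groups do not overlap upward for 38.7% and downward for 37.9%. The distance is greatest for Dpyd and LOC304725, of which the latter rests on at most 12 counts per library.

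Promoter windows are shown for the 3 genes called higher with the largest fold changes that RefSeq gave a window for (among those with at most 1 gene inside the span), and for Camta1 as the gene called lower, so that their sequences can be compared. Each window runs from 250 bases before to 50 bases after the annotated start (RefSeq, build GRCr8, another build than the one that the submitters' processing notes name for the counts). Windows were matched for 61 of the 85 genes and for 10532 of the other protein-coding genes. Capitals mark GGGCGG (GC box) and CCAAT, read on both strands. The other motifs searched, TATAAA, TGACGTCA (the full cAMP response element) and CACGTG (E-box), were not found in these 4 windows, and none of the motifs overlapped in them.
Dpyd (chr2:209293730-209294029, plus strand): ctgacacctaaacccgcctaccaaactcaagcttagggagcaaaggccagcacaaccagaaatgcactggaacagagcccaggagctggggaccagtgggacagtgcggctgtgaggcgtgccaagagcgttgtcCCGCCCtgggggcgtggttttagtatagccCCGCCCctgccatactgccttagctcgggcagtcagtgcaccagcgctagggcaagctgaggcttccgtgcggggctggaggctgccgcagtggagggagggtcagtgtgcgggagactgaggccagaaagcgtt
Adgrv1 (chr2:13647358-13647657, minus strand): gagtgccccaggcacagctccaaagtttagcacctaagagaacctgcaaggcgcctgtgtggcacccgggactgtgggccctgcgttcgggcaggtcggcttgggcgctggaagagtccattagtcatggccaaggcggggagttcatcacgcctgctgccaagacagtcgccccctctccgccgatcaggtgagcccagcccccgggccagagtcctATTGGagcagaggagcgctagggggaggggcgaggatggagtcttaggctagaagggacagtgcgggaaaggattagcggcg
Lrrtm4 (chr4:114104380-114104679, plus strand): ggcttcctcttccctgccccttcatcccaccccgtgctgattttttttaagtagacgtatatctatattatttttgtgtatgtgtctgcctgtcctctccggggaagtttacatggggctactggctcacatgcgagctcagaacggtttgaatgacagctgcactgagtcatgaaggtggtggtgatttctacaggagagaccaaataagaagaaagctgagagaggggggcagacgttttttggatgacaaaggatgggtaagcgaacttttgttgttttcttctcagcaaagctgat
Camta1 (chr5:167639391-167639690, minus strand): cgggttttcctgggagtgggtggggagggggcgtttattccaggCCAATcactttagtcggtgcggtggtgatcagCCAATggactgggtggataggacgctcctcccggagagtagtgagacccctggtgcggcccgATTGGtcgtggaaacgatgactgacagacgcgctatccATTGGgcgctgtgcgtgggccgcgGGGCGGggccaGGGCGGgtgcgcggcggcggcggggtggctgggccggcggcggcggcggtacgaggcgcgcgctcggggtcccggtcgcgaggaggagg

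The windows of the genes called higher differed among themselves. The Dpyd window held 14 CG dinucleotides and 2 GC boxes, that of Adgrv1 held 17 CG dinucleotides and 1 CCAAT box on the other strand, and that of Lrrtm4 held 7 CG dinucleotides and no match. The Camta1 window held 36 CG dinucleotides, 4 CCAAT boxes and 2 GC boxes. Over the 61 matched genes the median GC content was 63.3%, against 61% for the other protein-coding genes. A GC box was found in 54.1% of the former and 62.2% of the latter (34.9% of all windows in the RefSeq table), and a CCAAT box in 27.9% and 37.7% (37.7% of all windows). TATAAA was found in 3.28% and 6.57%, the E-box in 6.56% and 9.33% and the full cAMP response element in 0% and 3.1% (14.3%, 6.65% and 1.91% of all windows). These shares are descriptions of the annotated windows, and the start sites used in INS-1 cells were not measured.

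Smaller changes were found by the adjusted p-value alone, which 27 of the 101 genes passed upward (26.7%) and 10 downward (9.9%), against 24.8% and 25.8% of the other protein-coding genes and 24.4% and 24.8% of all tested genes. Among the 81 genes the shares were 27.2% upward and 8.64% downward, and among the 20 genes with 2 or more genes inside 25% and 15%. The share that rose was close to that of the other protein-coding genes, and the share that fell was lower, with no test of that difference. At an unadjusted p-value under 0.05 there were 46 of the 101 genes (45.5%) and 37 of the 81 (45.7%), against 56.7% of the other protein-coding genes. The groups did not overlap upward for 50 of the 101 genes (49.5%) and downward for 24 (23.8%), against 38.8% and 38.9% of the other protein-coding genes and 38.7% and 37.9% of all tested genes. It was 51.9% upward and 21% downward for the 81 genes, and 40% and 35% for the 20. In both same-numbered pairs of libraries siTbk1 was above siScramble for 53 of the 101 genes and below it for 28, and 20 went in opposite directions. For the 81 genes these numbers were 43, 20 and 18, and among the other protein-coding genes 41.8% were above in both pairs and 41.8% below.

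Scaffolds of the synapse and membrane were the largest family, with 12 of 13 members above 0 and a median log2 fold change of 0.17. Above 0 lay 49.4% of the shorter genes of this family and 50.8% of all tested genes. The share above 0 was 64.6% from 50 to 100 kb and 65.8% from 100 to 200 kb among other protein-coding genes. It was 66.6% from 200 to 300 kb and 57.7% from 300 to 500 kb. 5 of the 13 scaffold genes (38.5%) rose by the adjusted p-value, against 24.4% of all tested genes. Besides Pclo and Lrba these were Exoc4 (log2 fold change 0.26), a subunit of the exocyst that tethers secretory vesicles, Dlgap1 (0.35), a postsynaptic scaffold, and Rims1 (0.57), an active zone protein that primes vesicles, which were named after their values were seen. Rims1 was at 2.08 and 1.82 CPM in control and at 2.70 and 3.13 CPM in siTbk1-treated cells. Its paralog Rims2, which had more reads, was at 60.5 and 56.9 CPM in control and at 62.6 and 62.0 CPM in siTbk1-treated cells, and did not pass the test (log2 fold change 0.09, adjusted p = 0.26, edgeR). Dmd, at 6.48 and 6.69 CPM in control and 7.67 and 6.68 CPM in siTbk1-treated cells, and Utrn, the gene of its relative utrophin, at 92.5 and 94.3 CPM in control and 97.0 and 98.8 CPM in siTbk1-treated cells, did not pass the test either. The member below 0 was Magi2, which had at most 0.708 CPM. Among the 81 tested genes of the same family with shorter spans, the median was −0.033, and 25.9% rose and 33.3% fell by the adjusted p-value.

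The adhesion proteins were divided. In the immunoglobulin-domain and leucine-rich repeat family, 5 of 10 members lay above 0 and 5 below, with a median log2 fold change of 0.08. Nrcam, a neuronal adhesion molecule of the L1 family named after its values were seen, rose from 51.4 and 50.4 CPM to 72.4 and 76.6 CPM (log2 fold change 0.55), just under the fold change limit. Robo1, a receptor for the Slit guidance proteins, fell from 8.64 and 9.29 CPM to 7.12 and 5.59 CPM (log2 fold change −0.49). Its neighbour on chromosome 11 and paralog Robo2 was at 96.5 and 93.2 CPM in control and at 93.6 and 93.8 CPM in siTbk1-treated cells, where the groups overlapped. In the trans-synaptic family, 6 of 7 members lay above 0, with a median of 0.20. Above 0 lay 45.5% of the 22 tested shorter genes of this family and 50.8% of all tested genes. Adgrv1 rose, and the latrophilin Adgrl3, named after its values were seen, fell from 6.33 and 5.15 CPM to 4.53 and 4.45 CPM (log2 fold change −0.36, adjusted p = 0.045, edgeR). The median of the shorter genes of these families was −0.059 and −0.045.

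The receptor tyrosine phosphatases included the gene with the most reads, Ptprn2, and 2 of the 4 rose, against 14.3% of the 14 shorter genes of the family and 24.4% of all tested genes. Ptprm, named after its values were seen, was at 6.35 and 6.64 CPM in control and at 9.12 and 8.32 CPM in siTbk1-treated cells (log2 fold change 0.43), a change of similar size to that of Ptprk. Ptprt was at 20.6 and 23.4 CPM in control and at 21.5 and 20.9 CPM in siTbk1-treated cells, with overlapping groups. Of the 3 ion channel genes 1 lay above 0, with a median of −0.12 for the family. This gene, Kcnma1, the large-conductance calcium-activated potassium channel, was at 23.9 and 24.1 CPM in control and at 27.0 and 27.1 CPM in siTbk1-treated cells (log2 fold change 0.17) and narrowly missed the threshold (adjusted p = 0.052, edgeR). Kcnh8, another potassium channel named after its values were seen, was at 3.48 and 3.11 CPM in control and at 2.70 and 2.62 CPM in siTbk1-treated cells, and did not pass the test either (log2 fold change −0.31, adjusted p = 0.12, edgeR). The 3 transmitter receptor genes all lay above 0, and Gabrg3 was the member that passed the test. Of the 35 tested shorter genes of this family 54.3% lay above 0 and 31.4% rose. Of the 5 tested enzymes and transporters, all above 0, 3 passed the test upward, among them Dpyd and Galnt13. Of the 730 shorter genes of this family 47.7% lay above 0 and 23.7% rose. Slc9a9, an endosomal sodium-proton exchanger, was at 7.87 and 8.20 CPM in control and at 7.72 and 9.62 CPM in siTbk1-treated cells, with overlapping groups.

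Of the 3 tested transcription, chromatin and RNA-binding factors with at most 1 gene inside the span, 1 lay above 0 and Camta1 fell, with a median log2 fold change of −0.31 (0.0061 for the 582 shorter genes of the family, of which 26.3% fell). In the group of kinases and cytoskeletal regulators 2 of 6 tested members lay above 0. Kalrn, an exchange factor for small G proteins, was at 88.7 and 101 CPM in control and at 90.6 and 82.6 CPM in siTbk1-treated cells, and did not pass the test. Fhod3, an actin-assembling formin, fell from 45.8 and 46.7 CPM to 34.8 and 32.0 CPM (log2 fold change −0.47), and Rabgap1l, a regulator of Rab proteins, rose from 4.16 and 4.44 CPM to 5.87 and 6.70 CPM (0.54). Among genes in no listed family, Fstl5, a secreted follistatin-like protein, fell from 26.6 and 24.8 CPM to 18.5 and 17.9 CPM (log2 fold change −0.50). Cadps2, which primes dense-core vesicles for release, rose from 18.9 and 19.4 CPM to 24.3 and 24.6 CPM (log2 fold change 0.35). These last 4 genes were named after their values were seen, and each passed the test with an adjusted p-value of at most 0.0039 (edgeR). Over all listed families together, median changes on the log2 scale were 0.15 for the 56 tested very long genes with at most 1 gene inside and 0.0029 for the 2368 tested shorter genes of the same families.

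**Figure D3:**
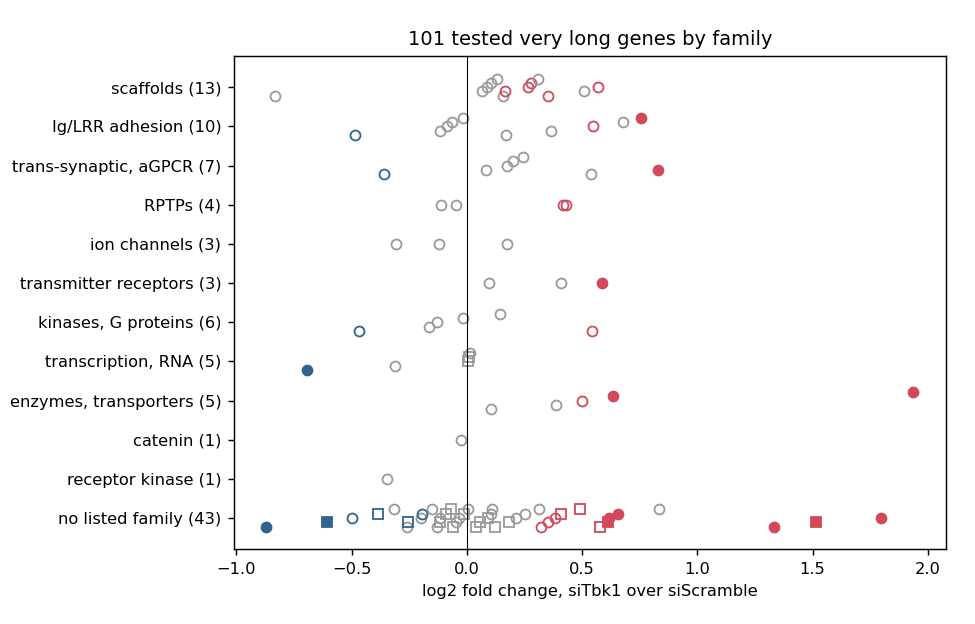
Log2 fold change of siTbk1 over siScramble (horizontal) for each of the 101 tested very long genes, by family, with the number of genes in parentheses. Red and blue mark genes that passed the adjusted p-value of 0.05 upward or downward, filled symbols those that also changed by at least 1.5-fold, and squares those whose span holds 2 or more other genes. In the scaffold family 12 of 13 genes lie to the right of 0, and in the immunoglobulin-domain and leucine-rich repeat (Ig/LRR) family 5 of 10 do. Of all tested genes, which are not drawn, 50.8% lay above 0.

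As a whole the very long genes were shifted slightly upward. The median over the 101 genes was 0.11 on the log2 scale and 0.13 for the 81 genes, against 0.0021 for the other protein-coding genes, and 63 of the 101 (62.4%) and 51 of the 81 (63.0%) lay above 0, against 50.3% of the others. The 20 genes with 2 or more genes inside had a median of 0.023. The shift was present in each same-numbered pair, with medians over the 101 genes of 0.091 in replicate 2 and 0.15 in replicate 3, and it is small beside the changes of single called genes. The median deviation of the 101 genes from their mean over the 4 libraries was −0.047 and −0.082 in the siScramble and 0.047 and 0.073 in the siTbk1 libraries on the log2 scale, so that the replicates of a group lay closer to each other than to the other group. The summed level of the 81 genes was 2160 and 2168 CPM in control and 2276 and 2269 CPM in siTbk1-treated cells. That of the 20 genes with 2 or more genes inside was 1780 and 1740 CPM in control and 1767 and 1749 CPM in siTbk1-treated cells, and that of the other protein-coding genes was 962658 and 954808 CPM and 990056 and 992518 CPM.

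The shift was shared with genes of much shorter span. Among the other protein-coding genes, the median log2 fold change was −0.13 for spans under 10 kb, −0.031 from 10 to 25 kb and 0.046 from 25 to 50 kb. It was 0.12 from 50 to 100 kb, 0.12 from 100 to 200 kb, 0.11 from 200 to 300 kb and 0.084 from 300 to 500 kb. The median of 0.13 in the 81 very long genes was thus close to those from 50 to 300 kb, and the medians did not go on rising with span. The share that rose by the adjusted p-value was 37.6% from 50 to 100 kb, 36.4% from 100 to 200 kb, 35% from 200 to 300 kb and 25% from 300 to 500 kb, and 27.2% in the very long genes. The share that fell was 34.1% under 10 kb, 17.1% from 50 to 100 kb, 14.6% from 100 to 200 kb and 12.5% from 200 to 300 kb. It was 16.3% from 300 to 500 kb and 8.64% in the very long genes. Median levels in control cells differed between these groups, at 29.1 CPM from 50 to 100 kb, 10.7 CPM from 300 to 500 kb and 5.55 CPM in the 81 very long genes, and fewer reads lower the share of genes that pass a test. Among genes with a mean between 1 and 10 CPM, the middle value of the log2 changes was 0.17 for the 39 very long genes with at most 1 gene inside and −0.047 for 2934 other protein-coding genes, with 30.8% and 16.7% rising and 10.3% and 22.2% falling. Between 10 and 100 CPM, the medians were 0.068 for 25 very long genes and −0.00096 for 6635 others, with 24% and 27.6% rising and 12% and 30.9% falling. Under 1 CPM the medians were 0.20 for 13 very long genes and 0.023 for 1273 others, with 7.69% and 7.38% rising. At 100 CPM and over they were 0.22 for 4 very long genes and 0.049 for 2218 others. The others from 1 to 10 and from 10 to 100 CPM had median spans of only 17.6 and 23.5 kb, so that level was matched here but span was not.

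**Figure D4:**
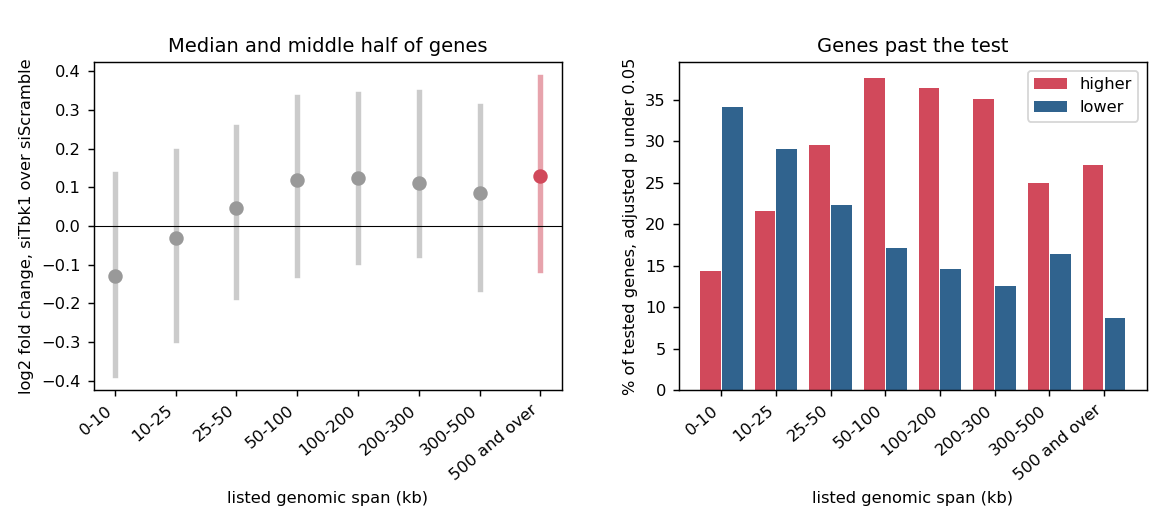
Log2 fold change of siTbk1 over siScramble by listed genomic span (left, points are medians and bars the middle 50% of genes) and percentage of tested genes that passed the adjusted p-value of 0.05 upward (red bars) or downward (blue bars) (right). Grey points are protein-coding genes under 500 kb, and the red point is the 81 very long genes with at most 1 gene inside. The medians rise from −0.13 under 10 kb to 0.12 from 50 to 100 kb and lie between 0.084 and 0.13 beyond that.

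Within the very long genes, the median log2 fold change of those with at most 1 gene inside the span was 0.11 for 37 genes from 500 to 600 kb, 0.10 for 28 genes from 600 to 800 kb and 0.24 for 16 genes of 800 kb and more. The last group had the fewest reads, with a median of 1.75 CPM in control cells, against 5.74 and 6.40 CPM in the others. Of the genes with the longest spans, Dmd is given above. Il1rapl2, an interleukin-1 receptor-like adhesion protein listed over 1564 kb, was at 0.562 and 0.757 CPM in control and at 0.638 and 0.609 CPM in siTbk1-treated cells. Lrrc4c, a netrin-G ligand listed over 1398 kb, was at 0.479 and 0.404 CPM in control and at 0.914 and 0.477 CPM in siTbk1-treated cells, and neither passed the test. These 2 genes were named after their values were seen.

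Just inside the limit of 500 kb were Dis3l2, an RNA-degrading enzyme (500.1 kb, log2 fold change 0.25), Robo1 (501 kb, −0.49) and Rims2 (502 kb, 0.09). Just outside were Sorcs1, a sorting receptor of the Vps10 family (499.5 kb, −0.0033), the uncharacterized LOC103691744 (498.1 kb, 1.05) and Lpp, a focal adhesion protein (498 kb, 0.05). Zfp84, a zinc finger gene with 16 genes inside its span, had a log2 fold change of 0.0070.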

How the data were processed

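RNA-seq covered 4 samples of INS-1 832/13 cells, 2 per siRNA. The values are estimated counts per gene as the authors deposited them, not scaled between samples and partly fractional, with listed gene positions. The submitters' processing notes name STAR 2.6.1d, Partek and the rn6 build, and the counting tool is not given in the sources used here. Counts were rounded, low genes were filtered by filterByExpr (minimum count 10), and libraries were scaled with TMM factors between 0.982 and 1.02. Groups were compared with edgeR 4.0.16 (glmQLFit, glmQLFTest, treatment as the only factor, R 4.3.3) and Benjamini-Hochberg adjustment covered all 13953 genes. Standard errors are the fitted log2 change divided by the root of F. The tests were tested on simulated data. Split reads means a count at least 0.01 away from any whole number. Intervals between samples rest on 2 samples per group, and depth floors cover counting error only.

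The members and gene families were chosen with earlier results of these data known, and no test of the list as a whole was made. Families were assigned by patterns of gene symbols. The rule for named genes takes Tbk1 and, among tested members, those called with at least 0.5 CPM in the higher group, the 8 with the most reads, the 3 longest, the 3 on either side of 500 kb, and the one with the most reads in each family of at least 3. Alternatives were library size alone, upper quartile factors, DESeq2 1.42.0, limma-voom (limma 3.58.1), other filters, a replicate block, whole counts only, glmTreat, no fold change limit, other span limits and leaving out each sample. Some genes that met this rule are not reported here.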

Additional observations from a re-analysis of the deposited data

How the results depend on the processing

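The median log2 fold change of the very long genes stayed above 0 in every alternative. It was 0.058 with library size alone, where the other protein-coding genes were at −0.045, and 0.14 with whole counts only. By span, it was 0.13 over the 17 genes at 1000 kb and over, of which 3 were called higher and 0 lower. The 3 were Gramd1c, Sytl2 and LOC304725, and 11 of the 17 spans held 2 or more genes. Of these, LOC304725 passed the filter on low counts only through its siTbk1 libraries, and Sytl2 lay near the filter limit in control. Among the 17, 1 gene was lower at an unadjusted p under 0.05 in edgeR, DESeq2 and limma-voom alike, and DESeq2 and limma-voom also called 0 lower. In edgeR this gene was Cttn (log2 fold change −0.26), which also passed the adjusted p-value (adjusted p = 0.0013) and missed only the fold change limit. At 300 kb and over, 25 of 308 genes were called higher and 9 lower, against 4.81% and 6.18% of all tested genes. In the division made after the data were seen, the median was 0.13 with at most 1 gene inside the span and 0.023 with 2 or more (2 called higher, 1 lower). DESeq2 called 7 higher. Without a fold change limit 27 were higher and 10 lower, and glmTreat against a fold change of 1.5 called 3 higher and 0 lower (1 lower at an unadjusted p under 0.05, while edgeR's quasi-likelihood test, DESeq2 and limma-voom each called 3 lower).

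Replicate numbers are shared between the groups but mark no stated pairing. The difference between replicates 2 and 3 had a Pearson correlation between the groups of 0.0041 and a Spearman correlation of −0.195 across 13953 genes, which are not independent, and with the replicate block 11 were called higher and 3 lower, with a median of 0.11. With 1 sample left out (the lone sample of its group is then assumed to vary like the others), 9 to 11 were called higher, 2 to 4 lower, and the median lay between 0.085 and 0.11. Between 9 and 10 of the 14 genes called with all samples were then still called. Dpyd and Edil3 were called in all tests run, Camta1 in all but glmTreat, and the log2 fold change of Tbk1 lay between −2.16 and −2.01. Sign changes occurred in genes that did not pass the test: Zfp84 was at −0.040 with library size alone, −0.00084 without a filter on low counts and −0.020 to 0.035 with a sample left out, and Sorcs1 at 0.00026 with upper quartile factors, 0.011 with whole counts only and −0.78 to 0.44 with a sample left out. With a sample left out, Lpp ranged from −0.21 to 0.33, Slc9a9 from −0.057 to 0.25, Robo2 from −0.044 to 0.0092 and LOC691427 from −0.0083 to 0.36. Members below 1 CPM are limited by depth.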
